A study of Mus musculus with 2 samples.

Results

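The replication-dependent histone genes were taken as every gene symbol in the 2 count matrices that was H1f1 to H1f5, or H2ac, H2bc, H3c or H4c followed by a number. This rule found 64 of 55357 genes: 5 linker histone H1 genes, 18 H2A, 17 H2B, 12 H3 and 12 H4 genes. In the GENCODE M21 annotation of GRCm38, 54 of them lie on chromosome 13 and 10 on chromosome 3. The data are 2 single-cell libraries of T cells from the hearts of WT mice 7 days after myocardial infarction. The mice of 1 library were injected with anti-IgG, the control antibody, and those of the other with anti-PD1, an antibody against the checkpoint receptor PD-1. Both groups share the infarction, the tissue and the genotype. Strain, age, sex, antibody dose and the number of animals behind each library are not given in the sources used here.

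With 1 library per group the comparison between libraries has no replicate check, so no test was made. Levels are in CPM: unique molecular identifiers (UMIs, each standing for a counted RNA molecule) scaled to a total of 1000000 UMIs in the same cells. Every interval is an exact 95% interval for counting error only: Poisson for a level, conditional binomial for a ratio and Clopper-Pearson for a share. These intervals do not hold the variation between animals, and they are too narrow where the UMIs of a gene sit in few cells. Ratios are the anti-PD1 level over the anti-IgG level unless stated otherwise.

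Core histones H2A, H2B, H3 and H4 form the octamer that DNA winds around, and H1 binds the linker DNA between octamers. Cells copying their DNA need large amounts of new histone, and the genes named here are known to be transcribed mainly in S phase from gene clusters. Their mRNAs are the known exception among animal mRNAs: most end in a conserved stem-loop bound by Slbp rather than in a poly(A) tail, although polyadenylated forms that run past the stem-loop also occur, also in cells that do not divide. The kit named in the labels primes on poly(A), so the UMIs counted here are those of tailed RNA, or of RNA primed at an internal A run, and how much of each gene's mRNA that is was not measured. The first bases of the barcodes look like those of a kit version other than the labelled one, which was not checked. Whether reads come from the start or the end of a transcript decides which histone reads could be counted, so the comparison by stem-loop depends on it. UMIs of 2 genes are therefore not compared as amounts of mRNA, and each gene is compared with itself.

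The stem-loop is shown because it marks where the untailed mRNA ends. It was searched in the GENCODE M21 transcripts as 16 bases with a 4-base loop, and was found in 42 of the 64 genes. Stem bases are in lower case and the loop is in capitals. The commonest form, in 24 genes including H1f2, H1f3, H1f4, H2ac8 and H2bc6, and the forms that departed from it in the stem or loop, read as follows, with the genes beside each name.
Stem-loop of H1f4, H2ac8 and 22 other genes: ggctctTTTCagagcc
Stem-loop of H4c4, H4c18 and 4 other H4 genes: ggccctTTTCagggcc
Stem-loop of H3c3, H3c6, H3c7, H2bc3 and H2bc12: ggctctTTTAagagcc
Stem-loop of H4c9 and H4c14: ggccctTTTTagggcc
Stem-loop of H4c2 and H4c11: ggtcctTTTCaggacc
Stem-loop of H4c1: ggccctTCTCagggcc
Stem-loop of H3c8: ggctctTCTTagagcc
Stem-loop of H2ac20: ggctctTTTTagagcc
The H4 stem-loops differed from the commonest form in the stem. In 19 genes the longest annotated transcript ran at least 100 bases past the stem-loop (4884 bases in H1f3, 1257 in H4c14, 1153 in H1f4 and 151 in H2ac8). In 23 it ended sooner, as in H3c3 with 74 bases, and in 22 no stem-loop lay in the annotated transcript, as in H1f5, H2ac15 and H2ac22.

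Barcodes with fewer than 300 genes, fewer than 500 UMIs or more than 10% of UMIs from mitochondrial genes were dropped, which kept 4309 of 4380 in the anti-IgG library and 5835 of 6026 in the other. T cells, cells with a Cd3d, Cd3e or Cd3g UMI and at most 2 UMIs of each marker set of B cells, macrophages, endothelial cells and fibroblasts, numbered 3771 and 5023, with 17939999 and 22596448 UMIs. Trac, Trbc1 or Trbc2, the receptor constant genes, had a UMI in 88.9% and 82.1% of them, and B cell marker Cd79a in 0.318% and 0.319%. Cycling T cells, those with at least 4 UMIs summed over Mki67, Top2a, Birc5 and Rrm2, numbered 138 (3.66%, 3.08 to 4.31) and 162 (3.23%, 2.75 to 3.75); 15 and 17 of them had a sum of 4 or 5, and 124 and 129 T cells just outside had a sum of 2 or 3. Median UMIs per cell were 9673.5 and 9938.5 in cycling and 3915 and 3692 in other T cells. The libraries shared 47 barcodes, 29 of them among T cells of both. The haemoglobin genes Hba-a1 and Hbb-bs stood at 66.7 CPM in anti-IgG and 0.177 in anti-PD1 T cells. The part of red cell RNA in the histone values was not tested. Ribosomal RNA took 5.43% and 6.93% of T cell UMIs.

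Together the 64 genes held 23003 UMIs in anti-IgG T cells, 1282 CPM (1266 to 1299), and 22006 in anti-PD1 T cells, 974 CPM. In 42 genes the 2 libraries' T cells held at least 50 UMIs together, the minimum for a gene to be compared, and 22 lay under it. H2ac21 and H3c13 were just inside with 52 UMIs each and H2bc7 (48) and H2ac13 (39) just outside, while H2ac19, H3c14, H2bc23, H2bc1 and H2ac1 had none. The 5 H1 genes gave 57.8% of the histone UMIs in anti-IgG and 63.1% in anti-PD1 T cells, with H1f4 and H1f2 first in both. Several genes share long stretches with a near-identical copy: only 7.63% of the 90-base windows of H2ac24, 16.1% of those of H2ac22 and 18.8% of those of H4c18 were unique among the histone transcripts, against 100% in H1f1, H1f5, H2bc18 and H4c14. Values of the former are uncertain where the authors' counting could have split or dropped their reads.

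**Figure D1:**
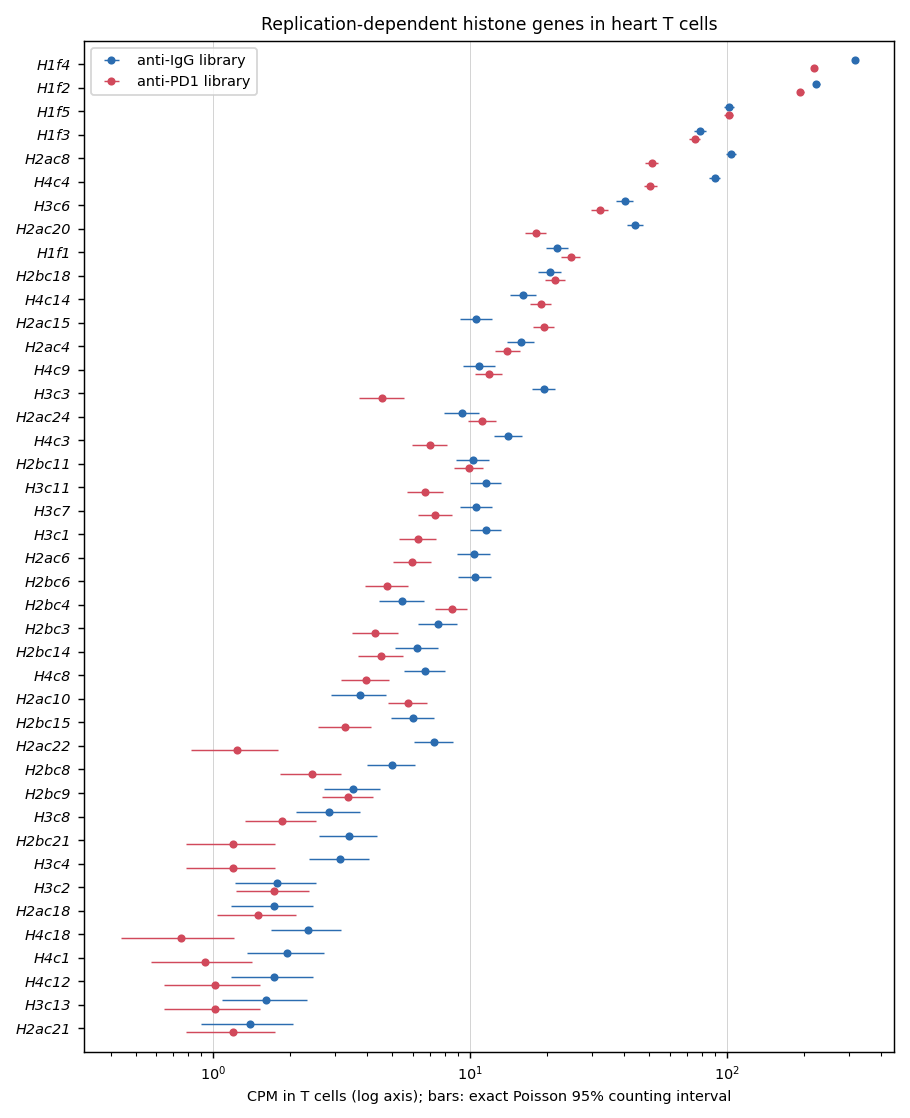
Level of the 42 histone genes with at least 50 summed UMIs in T cells of the anti-IgG (blue) and anti-PD1 (red) libraries, in CPM on a log axis, with exact Poisson 95% counting intervals. H1f4 and H1f2 have the most UMIs in both libraries, and most points of the anti-PD1 library lie to the left of their anti-IgG partner, widest apart in H2ac22 (7.25 and 1.24) and H3c3 (19.4 and 4.56).

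In both libraries nearly every histone gene was higher in cycling than in other T cells. In anti-IgG cells the summed level was 7150 CPM in cycling and 749 in other T cells, 9.55 times as high (9.30 to 9.80). In anti-PD1 cells it was 6820 and 501, 13.6 times as high (13.3 to 13.97). Cycling cells, under 4% of T cells, thus held 46.5% and 52.4% of all histone UMIs. By gene, 34 of 35 compared genes were at least 2 times as high in anti-IgG cycling cells, against 8.03% of all genes, and 30 of 31 in anti-PD1 cycling cells, against 8.41%. The exceptions were H2bc21 in the anti-IgG library (4.01 and 3.34 CPM, 1.20 times) and H2bc4 in the anti-PD1 library (8.87 and 8.47, 1.05 times). Without the 1% of T cells with the largest histone share the summed ratios were 3.63 and 7.11, and with cycling set from a sum of 2 UMIs the anti-IgG ratio was 6.19.

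The size of that difference varied widely between the families. H2A genes summed were 35.7 and 46.0 times as high in cycling cells of the anti-IgG and anti-PD1 libraries, H3 genes 18.1 and 20.2 times, H2B genes 12.9 and 15.8 times, H1 genes 6.66 and 11.3 times, and H4 genes 5.25 and 7.2 times. H3c3, an H3 gene, stood at 230 CPM in anti-IgG cycling cells and 0.243 in the other T cells, where it had 4 UMIs in 3633 cells. In the anti-PD1 library it stood at 59.7 and 0.0957. H2ac4 stood at 185 and 0.365 CPM in the anti-IgG library and 177 and 0.813 in the anti-PD1 library. In the anti-PD1 library H2bc3 (54.4 and 0.239 CPM) had a larger ratio than H2ac4 (228 and 218 times), and H2ac10 had 130 UMIs in cycling cells and 0 in other T cells. H1f5, which had the most UMIs of the H1 genes in cycling cells of both libraries, stood at 1121 and 9.55 CPM (117 times) and at 1262 and 8.32 (152 times). At the low end, H1f2 stood at 529 and 195 CPM (2.71 times) and 572 and 163 (3.51 times), and H1f4 at 998 and 253 (3.94 times) and 1146 and 144 (7.93 times). These 2 genes gave most of the histone UMIs outside cycling cells: H1f4 had a UMI in 47.8% and H1f2 in 46.6% of the other anti-IgG T cells, and in 32.3% and 37.8% of the other anti-PD1 T cells.

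Genes whose annotated transcript ran at least 100 bases past the stem-loop gave the larger part of UMIs outside cycling cells: 86.6% in the anti-IgG and 85.8% in the anti-PD1 library, against 57.8% and 56.6% in cycling cells. Summed, they were 6.37 and 8.98 times as high in cycling cells, whereas genes ending within 100 bases were 25.4 and 32.3 times and genes with no stem-loop in the annotated transcript 34.1 and 46.8 times as high. A few H1 genes weigh heavily in these shares and sums. Of the UMIs of genes that ran on, H1f4 and H1f2 had 4165 and 3213 of 10662 in other anti-IgG T cells. In other anti-PD1 T cells they had 3019 and 3408 of 8985. H1f5 had 1675 of 2701 UMIs of genes without a stem-loop in cycling anti-IgG cells, and 2134 of 3574 in cycling anti-PD1 cells. Sums without these H1 genes were not made. The order of the sums held for the median gene only in part. The median share of a gene's UMIs found in cycling cells was 37.4% and 42.8% over 16 compared genes that ran on, 80.2% and 81.3% over 13 that ended sooner, and 54.6% and 64.9% over 13 with none. Members of each kind overlapped: H2ac8, which runs on, had 88.1% and 87.9% of its UMIs in cycling cells, and H4c18, which ends 31 bases past the stem-loop, 11.9% and 5.88%.

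**Figure D2:**
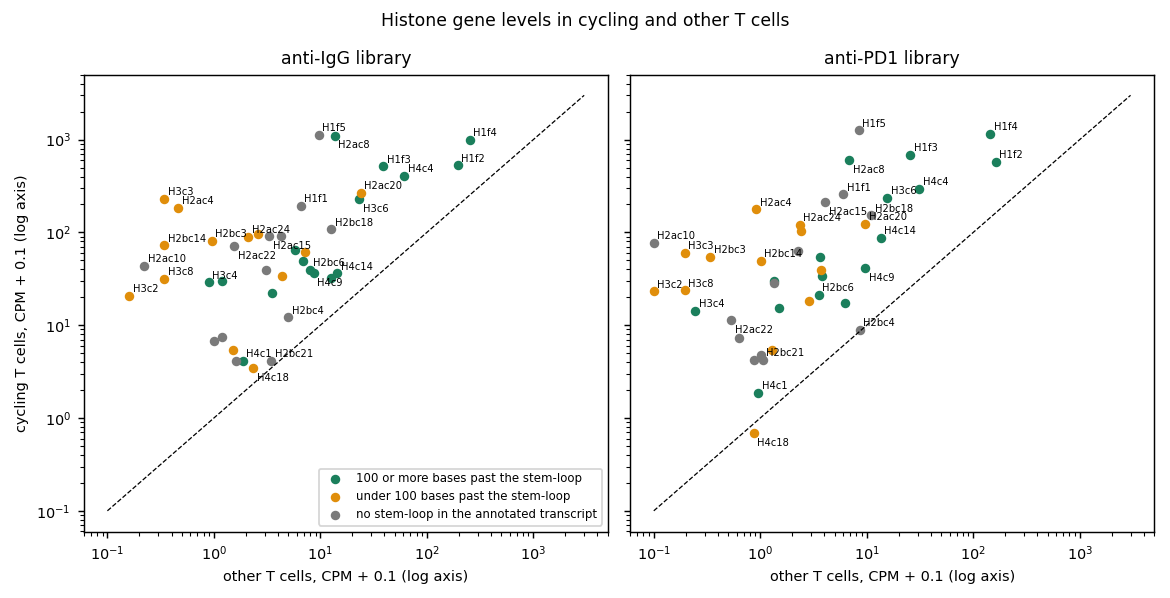
Level in cycling (vertical) against other T cells (horizontal) of the 42 histone genes with at least 50 summed UMIs, in CPM plus 0.1 on log axes, in the anti-IgG (left) and anti-PD1 (right) libraries, coloured by how far the annotated transcript runs past the stem-loop, with the line of equal levels dashed. Nearly all genes lie above the line, H3c3 and H2ac4 far above it, while H2bc21 (anti-IgG) and H2bc4 (anti-PD1) lie closest to it and H4c18 (anti-PD1) below it.

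Between libraries the histone genes as a group were lower in anti-PD1 T cells. The ratio of the summed level was 0.760 (0.746 to 0.774), and the median ratio of the 42 compared genes was 0.673 beside 0.932 for all 12019 genes. Of the 42, 21 were lower by 1.5 times or more, against 9.78% of all genes, and 3 (H2ac15, H2ac10 and H2bc4) were at least 1.5 times as high, against 6.17%. With cells thinned to 1000 UMIs, 9 of the 21 genes still at the minimum were lower by that factor, and 11 of 27 with a minimum of 200 summed UMIs.

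The summed level differed more outside the cycling cells than in them, a contrast that was not tested. In other T cells the summed ratio was 0.669 (0.652 to 0.687), and over 12 alternative settings it stayed between 0.662 and 0.676. Among 27 compared genes, 16 were lower by 1.5 times or more (9.61% of all genes) and only H2bc4 was that much higher (6.42%), at 4.86 CPM in anti-IgG and 8.47 in anti-PD1 cells. In cycling cells the summed ratio was 0.954 (0.929 to 0.979); 9 of 34 genes were lower (8.73% of all genes) and 3, H4c14, H2ac15 and H2ac10, higher by the same factor (6.05%). Without the 1% of T cells with the largest histone share, 38 and 50 cells, the summed ratio in cycling cells was 1.31.

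In cycling cells the summed levels of H1 and core genes went opposite ways, while the median cell was higher in the anti-PD1 library for both. Median levels were 1162 and 3078 CPM for H1, and 1118 and 2415 for core genes. The H1 genes summed stood at 3357 CPM in the anti-IgG and 3928 in the anti-PD1 library, a ratio of 1.17 (1.13 to 1.21). The core genes stood at 3793 and 2892, a ratio of 0.762 (0.734 to 0.792). By family the ratio was 0.718 for H2A, 0.682 for H3, 0.843 for H4 and 0.953 (0.865 to 1.05) for H2B. H1 thus gave 46.9% of the histone UMIs of anti-IgG cycling cells and 57.6% of those of anti-PD1 cycling cells. In other T cells both were lower in the anti-PD1 library, H1 with 504 and 347 CPM (0.689, 0.668 to 0.711) and core genes with 245 and 154 (0.628, 0.600 to 0.658). Without the same 1% of cells the cycling ratios were 1.56 for H1 and 1.08 for core genes; the cells left out were chosen by the quantity compared, so these values do not show where a difference lies.

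**Figure D3:**
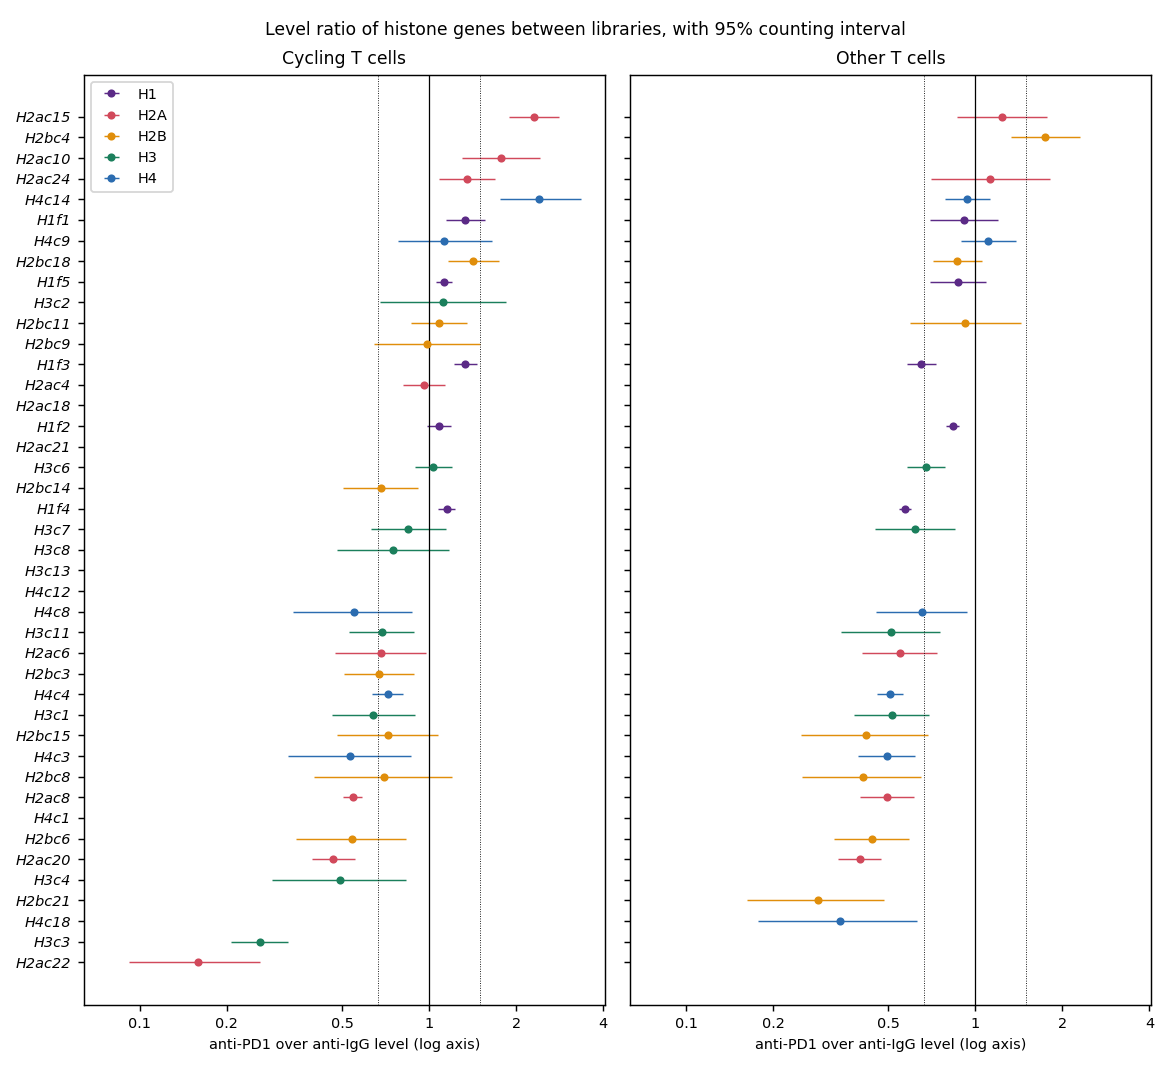
Ratio of the anti-PD1 to the anti-IgG level of each histone gene, on a log axis with exact 95% counting intervals, in cycling (left) and other (right) T cells, coloured by family and ordered by the ratio over all T cells, with dotted lines at a factor of 1.5 either way. Genes under 50 summed UMIs in those cells are not drawn; all 5 H1 genes lie above 1 in cycling and below 1 in other cells, and H2ac22 and H3c3 lie lowest in cycling cells.

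All 5 H1 genes showed the same pair of directions, though not all with intervals clear of 1. H1f4 stood at 998 and 1146 CPM in cycling cells (1.15, 1.07 to 1.23) and at 253 and 144 in other T cells (0.570, 0.544 to 0.598). H1f3 stood at 517 and 690 in cycling (1.33, 1.22 to 1.46) and 39.0 and 25.4 in other cells (0.651, 0.579 to 0.731). For H1f2 the ratios were 1.08 (0.984 to 1.19) and 0.834 (0.795 to 0.876), for H1f5 1.13 (1.06 to 1.20) and 0.872 (0.699 to 1.09), and for H1f1 1.34 (1.15 to 1.56) and 0.913 (0.698 to 1.20). Of the H1 UMIs of cycling cells H1f5 gave 33.4% and 32.1%, H1f4 29.7% and 29.2%, H1f2 15.7% and 14.6%, H1f1 5.74% and 6.55%, and H1f3 15.4% (14.4 to 16.4) and 17.6% (16.7 to 18.5), the one gene whose counting intervals did not overlap. In other T cells H1f4 gave 50.3% (49.2 to 51.4) and 41.6% (40.5 to 42.8), and H1f2 38.8% (37.7 to 39.8) and 47.0% (45.8 to 48.1), so H1f4 had the most H1 UMIs there in the anti-IgG and H1f2 in the anti-PD1 library. H1f4 overlaps the long annotated transcript of H2bc6 on the same strand, so reads in the overlap belong to either.

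The H2A genes held both the lowest and the highest ratios: of 10 compared genes 4 were lower and 2 higher by 1.5 times or more, with a median of 0.864. Of all genes, 9.78% were lower and 6.17% higher by that factor. H2ac22 stood at 7.25 CPM in anti-IgG and 1.24 in anti-PD1 T cells (130 and 28 UMIs), a ratio of 0.171 (0.109 to 0.259). Its UMIs were spread over 48 of 138 cycling anti-IgG cells and 16 of 162 cycling anti-PD1 cells, with at most 8 and 3 in a cell. H2ac15 stood at 10.6 and 19.4 CPM, a ratio of 1.83 (1.54 to 2.19), in 44 and 87 of the cycling cells, and H2ac10 at 3.73 and 5.75 (1.54, 1.14 to 2.10). H2ac8, which had the most UMIs of the H2A genes in T cells, stood at 104 and 51.1 CPM (0.490, 0.455 to 0.527), and H2ac20 at 44.0 and 18.1 (0.411, 0.363 to 0.463). The make-up of the H2A UMIs in cycling cells therefore differed: H2ac8 gave 57.2% in anti-IgG and 43.3% in anti-PD1, H2ac15 4.74% and 15.2%, and H2ac22 3.67% and 0.810%. With cells thinned to 1000 UMIs H2ac22 stood at a ratio of 0.107 and H2ac10 at 1.03.

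Among the H3 genes all 9 compared were lower in the anti-PD1 library, and 6 of them by 1.5 times or more, with a median of 0.630; of all genes 7553 of 12019 were below 1 and 9.78% lower by that factor. Of the 6, H3c8 (0.654) stood at 1.05 with thinned cells and 1.04 without the 1% of T cells with the largest histone share, and H3c2 (0.968) at 1.49 without those cells. H3c3 stood at 19.4 and 4.56 CPM in T cells (348 and 103 UMIs), a ratio of 0.235 (0.187 to 0.294), and at 0.117 with cells thinned to 1000 UMIs. Nearly all of these UMIs were in cycling cells, 344 in 65 anti-IgG cells and 101 in 58 anti-PD1 cells, with at most 23 and 5 in a cell. In cells thinned to 1000 UMIs, H3c3 had a UMI in 17.4% (11.5 to 24.8) of cycling anti-IgG cells and in 3.11% (1.02 to 7.1) of their anti-PD1 counterparts. Unthinned, the shares were 47.1% and 35.8%. H3c6 had 29.9% of the H3 UMIs of cycling cells in the anti-IgG and 45.4% in the anti-PD1 library, while its own level there was 229 and 237 CPM. 1 cell held 71 of the 342 anti-IgG and another 87 of the 400 anti-PD1 H3c6 UMIs. H3c4 stood at 3.12 and 1.19 CPM in T cells (0.383, 0.232 to 0.616; 0.251 thinned).

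In the H2B family 8 of 10 compared genes were below 1, 5 lower by 1.5 times or more and 1 higher, with a median of 0.642. The H4 family had the lowest median, 0.575, with 6 of 8 compared genes lower by 1.5 times or more and none higher by that factor. These counts stand beside 9.78% of all genes lower and 6.17% higher by the same factor. H2bc21 stood at 3.40 and 1.19 CPM (0.351, 0.215 to 0.561) and H2bc6 at 10.5 and 4.78 (0.456, 0.357 to 0.581), whereas H2bc18 stood at 20.5 and 21.5 (1.05, 0.916 to 1.21). H2bc4 stood at 5.46 and 8.50 (1.56, 1.21 to 2.00). H4c4, which had the most UMIs of the H4 genes, stood at 89.9 and 50.5 CPM (0.562, 0.521 to 0.607). H4c18 stood at 2.34 and 0.752 (0.321, 0.172 to 0.577) and H4c1 at 1.95 and 0.929 (0.476, 0.263 to 0.841). H4c14 stood at 16.1 and 18.9 CPM over all T cells (1.17, 1.01 to 1.37) and at 36.1 and 87.0 in cycling cells (2.41, 1.75 to 3.35), where its share of H4 UMIs was 6.39% and 18.2%. H2bc18 overlaps Gm20628, an annotated gene on the other strand with 299 and 747 UMIs, and the sources used here do not say whether the counting used strand.

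Promoters are shown for the most counted gene and for those at the ends of the range of ratios. They are RefSeq windows of GRCm38.p6 from 250 bases before to 50 after the start, and 57 of the 64 genes had one. Capitals mark CCAAT and TATAAA, each searched on both strands, so that a CCAAT of the other strand reads ATTGG.
Promoter of H2ac22, chr13:21787199-21787498, minus strand: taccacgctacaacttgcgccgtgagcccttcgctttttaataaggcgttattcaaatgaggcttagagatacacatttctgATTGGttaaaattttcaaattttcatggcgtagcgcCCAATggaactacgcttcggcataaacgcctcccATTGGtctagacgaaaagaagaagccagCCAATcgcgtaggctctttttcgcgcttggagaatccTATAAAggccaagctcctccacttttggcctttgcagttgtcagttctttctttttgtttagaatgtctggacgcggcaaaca
Promoter of H3c3, chr13:23745472-23745771, minus strand: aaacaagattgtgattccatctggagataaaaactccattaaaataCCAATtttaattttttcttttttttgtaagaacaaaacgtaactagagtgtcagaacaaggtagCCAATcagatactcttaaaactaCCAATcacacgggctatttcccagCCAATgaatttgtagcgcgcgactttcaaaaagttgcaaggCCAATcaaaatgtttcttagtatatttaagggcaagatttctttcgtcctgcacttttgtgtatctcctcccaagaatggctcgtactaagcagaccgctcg
Promoter of H2ac15, chr13:21753863-21754162, minus strand: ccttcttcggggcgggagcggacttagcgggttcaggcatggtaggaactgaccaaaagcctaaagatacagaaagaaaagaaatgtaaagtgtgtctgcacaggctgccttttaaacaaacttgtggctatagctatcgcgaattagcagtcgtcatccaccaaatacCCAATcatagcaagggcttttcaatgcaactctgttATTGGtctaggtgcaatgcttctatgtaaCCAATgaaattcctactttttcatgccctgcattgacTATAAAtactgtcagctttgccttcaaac
Promoter of H1f4, chr13:23622509-23622808, minus strand: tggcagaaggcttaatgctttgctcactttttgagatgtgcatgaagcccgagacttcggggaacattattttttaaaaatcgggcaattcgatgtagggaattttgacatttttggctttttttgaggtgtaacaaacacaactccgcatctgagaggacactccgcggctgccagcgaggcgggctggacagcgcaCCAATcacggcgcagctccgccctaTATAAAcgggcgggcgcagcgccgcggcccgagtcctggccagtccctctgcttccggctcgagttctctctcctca
Those of H2ac22 and H2ac15, with the lowest and highest ratios, held both letter groups, with 4 and 3 copies of CCAAT, and that of H3c3 held 5 copies of CCAAT and no TATAAA. Over the 57 genes CCAAT was in 86% of windows and TATAAA in 59.6%, beside 37.4% and 13.6% of all 32851 windows. ATTTGCAT, the octamer motif known from H2B promoters and searched on both strands too, was in 6 of 17 H2A and 6 of 14 H2B windows, in none of the H1, H3 and H4 windows and in 1.74% of all. CCAAT was in 3 of 11 H4 windows and in every window of the other families. In 0 of the 57 windows did matches to different letter groups overlap, and a match describes letters only. Windows of H2A and H2B neighbours can cover the same bases, as those of H2ac8 and H2bc8 do, and a match there counts for both genes. The counts and shares of windows are therefore not over separate stretches of DNA.

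Of the H2A and H2B genes, 13 pairs lie head to head within 1000 bases and so share the stretch between them; 4 pairs had both genes at the minimum. In 2 the partners had like ratios, H2ac8 and H2bc8 (0.490 and 0.491) and H2ac20 and H2bc21 (0.411 and 0.351). In the other two they went opposite ways, H2ac15 with 1.83 and H2bc15 with 0.544 (0.399 to 0.738), and H2ac6 with 0.576 (0.458 to 0.723) and H2bc4 with 1.56.

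Histone UMIs were concentrated in a minority of cells. The 1% of T cells with the most held 36.5% of them in the anti-IgG and 36.8% in the anti-PD1 library. Cycling cells had a median of 23 histone UMIs in the anti-IgG and 51 in the anti-PD1 library, with a maximum of 521 and 429, and other T cells a median of 2 and 1. Scaled by depth, the median cycling cell stood at 2101 and 5883 CPM, so the median cell was higher in the anti-PD1 library while the summed level was not. At least 5000 histone CPM were found in 55 of 138 cycling anti-IgG cells (39.9%, 31.6 to 48.5) and in 88 of 162 cycling anti-PD1 cells (54.3%, 46.3 to 62.2); the intervals overlap, and 11 and 21 cells lay between 4000 and 6000. Among other T cells, 19 and 10 reached 5000. The top of the range was higher in the anti-IgG library, where the upper decile of cycling cells began at 19086 CPM, against 14004 in the anti-PD1 library. Across cycling cells the H1 and core levels moved together, with a Spearman correlation of 0.838 over 138 and 0.839 over 162 cells; both values of a cell share its depth and its cell cycle position.

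**Figure D4:**
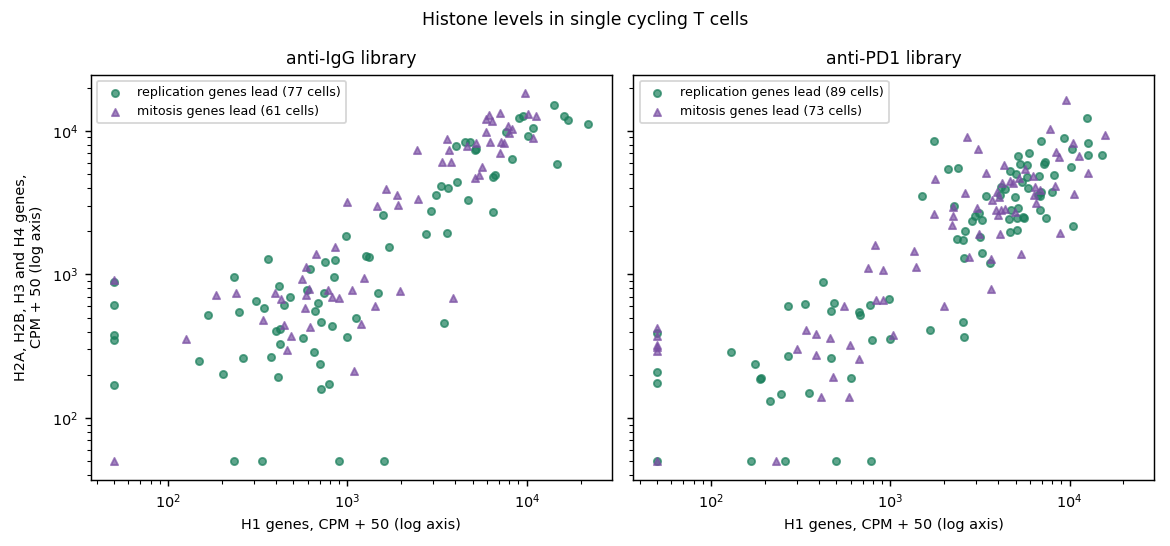
Core histone level against H1 level of each cycling T cell, in CPM plus 50 on log axes, in the anti-IgG (left) and anti-PD1 (right) libraries; circles are cells in which the replication list leads and triangles cells in which the mitosis list leads. Cells spread over the whole of both axes in each library, and at like H1 levels the upper cells of the anti-IgG library lie higher in core histones.

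Cycling cells were also divided by whether a list of 34 replication genes or of 29 mitosis genes held more UMIs. The replication genes led in 77 and 89 cells, called S-leaning here, and the mitosis genes in 61 and 73, called G2M-leaning. Near the divide lay 16 and 34 cells, with 40 to 60% of these UMIs from replication genes. The names give the list that led and are not a measured phase. Histone levels varied widely among S-leaning cells. Their lowest decile ended at 471 and 309 CPM in the anti-IgG and anti-PD1 libraries, and their upper decile began at 19765 and 13024. In the anti-IgG library the summed histone level was lower in S-leaning than in G2M-leaning cells, 6076 and 8636 CPM (0.704, 0.677 to 0.731). There 18 of 28 genes were lower by 1.5 times or more (10.7% of all genes) and 0 were higher (12.5%). In the anti-PD1 library the levels were 6762 and 6890 (0.981, 0.946 to 1.02), with 5 of 25 genes lower (8.05%) and 2 higher (12.4%), H3c1 and H1f1. H1f1 was the one H1 gene higher in S-leaning cells of both libraries, at 1.49 and 2.67 times. H3c6 (0.426 and 0.480) and H3c7 (0.453 and 0.376) were lower in S-leaning cells of both libraries. With cycling set from a sum of 2 UMIs the summed ratios were 0.415 and 0.578, and 0.889 and 1.04 from a sum of 8. Between libraries, the core genes summed had a ratio of 0.943 (0.892 to 0.997) in S-leaning and 0.614 (0.582 to 0.648) in G2M-leaning cells. Over all histone genes, the median S-leaning cell stood at 1544 CPM in the anti-IgG and 5718 in the anti-PD1 library. The median G2M-leaning cell stood at 4473 and 5904, although the summed level of these cells was lower in the anti-PD1 library. Free histone RNA and doublets of cells in different phases were not tested as a part of these values.

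The lower level of the anti-PD1 library was found in each T cell gate drawn by marker UMIs outside cycling cells. Ratios were 0.546 (0.499 to 0.598) in cells with Foxp3, 0.622 (0.590 to 0.656) with Cd4 and no Cd8 UMI, 0.667 (0.634 to 0.703) in the remaining cells, 0.690 (0.635 to 0.750) with at least 2 UMIs over Trdv4, Trgv6 and Il17a, 0.786 (0.685 to 0.902) with at least 2 over Klrb1c, Ncr1 and Klra7, and 0.797 (0.757 to 0.840) with Cd8a or Cd8b1 and no Cd4 UMI. In the anti-IgG library the Cd4 cells were highest (821 CPM) and the Trdv4, Trgv6 or Il17a cells lowest (575), and in the anti-PD1 library Cd8 cells were highest (572) and Trdv4, Trgv6 or Il17a cells again lowest (396). Outside T cells, the ratio was 0.882 (0.752 to 1.04) in cells with B cell markers, an interval that holds 1. It was 0.487 (0.397 to 0.598) in cells with macrophage markers, from 200 and 187 histone UMIs. A lower level was thus also counted in the macrophage marker cells. Among T cells with no UMI of the 4 cycling genes the ratio was 0.666 (0.647 to 0.685).

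A depth-matched view gave the same direction in other T cells, and no lower share in cycling cells. In other T cells thinned to 1000 UMIs, 48.5% (46.8 to 50.1) of 3599 anti-IgG cells had at least 1 histone UMI, against 35.7% (34.3 to 37.1) of 4810 in the anti-PD1 library; 34 and 51 shallower cells were left out, and the unthinned shares were 84.5% and 72.2%. In cycling cells the thinned shares were 80.4% (72.8 to 86.7) and 80.7% (73.8 to 86.5). In cells with B cell markers and no Cd3 UMI they were 60.7% (47.3 to 72.9) of 61 and 51.7% (43.2 to 60.2) of 143, at median depths of 2951 and 2436.5 UMIs. B cells use these genes too, so this is no measure of free RNA for the family. H3c3 and H2ac22 had no UMI in the thinned B marker cells, which allows shares of up to 4.92% and 2.10% by a limit of 3 counts and up to 5.87% and 2.55% by Clopper-Pearson, in anti-IgG and anti-PD1. The share of H3c3 in cycling anti-IgG cells (17.4%, 11.5 to 24.8) lay above these. The intervals of H3c3 in cycling anti-PD1 cells (3.11%, 1.02 to 7.1) and of H2ac22 in cycling cells of both libraries (5.07%, 2.06 to 10.2, and 0.621%, 0.0157 to 3.41) were not clear of them.

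**Figure D5:**
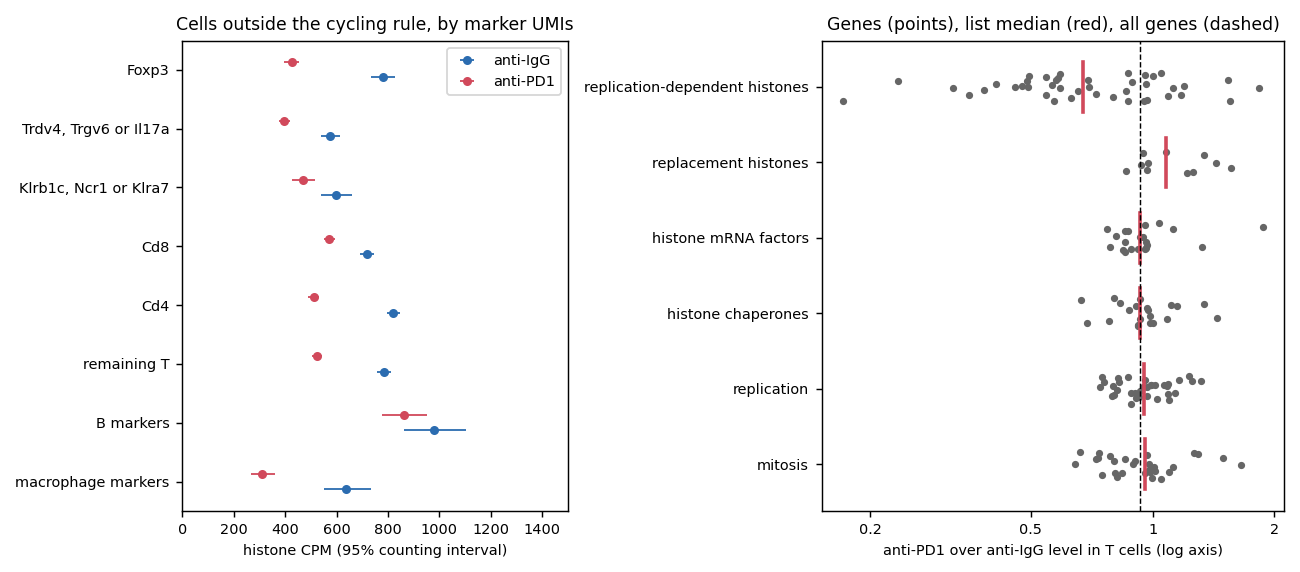
Left, summed histone CPM with exact Poisson 95% counting intervals in cells outside the cycling rule, by gate, in the anti-IgG (blue) and anti-PD1 (red) libraries. Right, ratio of the anti-PD1 to the anti-IgG level in T cells of each compared gene (points) of 6 gene groups on a log axis, with the group's median in red and the median of all genes dashed; of the groups drawn the replication-dependent histones have the lowest median, 0.673, beside 1.08 for the replacement histones, and the list of untailed RNAs, with 2 compared genes, is not drawn.

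Lists of other histone and cell cycle genes had medians nearer to that of all genes. The 11 compared replacement and variant histones, many of whose mRNAs carry poly(A) tails and are made outside S phase too, had a median ratio of 1.08, and none was lower by 1.5 times. H2az1, the H2A.Z gene, stood at 519 and 695 CPM (1.34, 1.30 to 1.37), H2ax, the variant phosphorylated at DNA breaks, at 84.9 and 122 (1.43, 1.35 to 1.53), and H3f3b, a gene of H3.3, at 1612 and 2032 (1.26, 1.24 to 1.28). Cenpa, the centromeric H3, stood at 63.9 and 100.0 (1.56, 1.46 to 1.68). H1f0, the replacement linker histone, stood at 54.6 and 51.0 (0.933, 0.856 to 1.02). Among 21 compared genes of histone mRNA processing and transcription the median was 0.931; Slbp, the stem-loop binding protein, stood at 94.5 and 125 CPM (1.32, 1.25 to 1.41), and Ccne2, cyclin E2, at 3.34 and 6.28 (1.88, 1.38 to 2.59). The histone chaperones had a median of 0.933 over 21 genes, with Nasp, an H3 and H4 chaperone, at 1.45 and Daxx, an H3.3 chaperone, at 0.664. The medians were 0.954 over 34 replication genes, 1 of them Pcna at 1.10, and 0.956 over 29 mitosis genes. Of the 4 genes that set the cycling rule, Mki67 stood at 118 and 101 CPM in T cells and Top2a at 82.3 in both.

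Of the list of RNAs known to lack poly(A) tails, 2 were at the minimum, too few for their median of 0.597 to describe the list. Both were below 1, as were 7553 of all 12019 genes. Rpph1, the RNA of RNase P, stood at 5.57 and 5.40 CPM (0.969, 0.737 to 1.27), and AY036118, a ribosomal RNA fragment gene, at 176 and 65.0 (0.368, 0.346 to 0.392). Rn18s-rs5, another ribosomal RNA gene, stood at 54083 and 69262 (1.28). It was not in the list under this symbol and was added after its values were seen. With mitochondrial, ribosomal protein and ribosomal RNA genes left out of the total, the summed histone ratio in T cells was 0.763. Whether RNA capture differed between the libraries was not tested, and antibody and library cannot be told apart.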

How the data were processed

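The deposited values are unnormalized UMI counts of each gene in each barcode, from 1 library per group. The matrices were made with Cell Ranger 7.1.0, per the file headers. Version 7.2.0 of that tool, Seurat 4.4.0 and the mm10 build are listed in the submitters' processing notes. The annotation behind the gene IDs was not stated in these sources, and the 3′ kit is given as labelled. GENCODE M21 served for positions, overlaps and stem-loops, and RefSeq windows for promoters.

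Cells were filtered and classed by UMI rules as stated in the text, with no clustering. Scrublet in scanpy 1.11.5 marked 0 cells by its automatic threshold in both libraries, which was not taken to mean that doublets were absent. No doublets were removed in the main setting. In an alternative, the highest-scoring 149 and 272 cells were removed (0.8% per 1000 cells), 3 and 5 of them cycling. A level is a gene's UMI sum over a class of cells, divided by the sum of all their UMIs. Genes with at least 50 summed UMIs were compared, and called past a factor of 1.5 between libraries or 2 between cycling and other cells. Cells were not treated as replicates and no p-value was computed. The ratio and interval code was tested on simulated data.

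The members and gene lists were chosen with earlier results of these data known. Of 130 symbols in 6 lists, 127 were found. The 28 members named by rule were the 12 with the most UMIs, the 8 lowest and 8 highest ratios between libraries, all H1 genes, and the 8 highest and 4 lowest ratios of cycling to other cells. H2ac21, H3c13, H2bc7 and H2ac13 are named for their place at the minimum, and the members named for shares, stem-loops, pairs, copies or the S-leaning comparison were chosen after their values were seen. Alternatives changed the T cell rule, cell filters, doublets, depth, weighting, denominator, cycling threshold, cell mix and gene minimum. Leaving out the shared barcodes, and the H1 and core levels under each setting, were added after seeing the data. Python 3.11.15, numpy 2.4.6, scipy 1.17.1, pandas 2.3.3 and matplotlib 3.10.9 were used.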

Additional observations from a re-analysis of the deposited data

Results flagged for a closer look

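The H1 sum, H1f4 and H1f3 were singled out because their counting intervals lay on opposite sides of 1 in cycling and other T cells. H1f2, H1f5 and H1f1 did not meet this rule, and of the family sums only that of H1 was examined for it. The difference between the cell groups was not tested. H1 summed had an anti-PD1 over anti-IgG ratio of 1.17 (1.13 to 1.21) in cycling cells and 0.689 (0.668 to 0.711) in other T cells. H1f4 had ratios of 1.15 (1.07 to 1.23) and 0.570 (0.544 to 0.598), and H1f3 of 1.33 (1.22 to 1.46) and 0.651 (0.579 to 0.731). With 1 library per group these ratios compare libraries, and the intervals leave out the variation between animals.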

How the results depend on the processing

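Of the values that answer a comparison, 78 stayed within their counting interval (or, for a count of genes, within 1.5 times) and 33 moved. A reversal was counted only for ratios past a factor of 1.5, here those of cycling over other cells, and 0 of these crossed 1. The ratio between libraries in cycling cells (0.954) and the anti-PD1 S-leaning over G2M-leaning ratio (0.981) did cross 1, reaching 1.31 and 1.04. The cause of the moves was not tested. The summed ratio in T cells was 0.724 with cells thinned to 1000 UMIs and 0.713 with cells weighted alike, and in other T cells it lay between 0.662 and 0.676. In cycling cells it was 0.982 thinned, 0.983 and 0.885 with cycling set from a sum of 2 or 8 UMIs, and 1.31 without the 1% of T cells with the largest histone share. Cycling over other ratios, anti-IgG then anti-PD1, were 8.01 and 11.4 with no limit on other markers, 8.53 and 12.4 thinned, 8.59 and 12.5 with cells weighted alike, 8.47 and 12.1 with mitochondrial and ribosomal genes out of the total, 6.19 and 9.20 or 11.2 and 14.7 from a sum of 2 or 8, and 3.63 and 7.11 without the top 1%. S-leaning over G2M-leaning ratios in the anti-IgG library were 0.769 with cells weighted alike, 0.415 and 0.889 from a sum of 2 or 8, and 0.566 without the top 1%. In the anti-PD1 library they were 0.871 with no marker limit, 0.934 thinned, 0.578 and 1.04 from a sum of 2 or 8, and 1.04 with cells near the divide left out. Genes lower by 1.5 times numbered 9 thinned and 11 with a minimum of 200 UMIs, and genes higher 5 without the top 1% and 6 with no minimum.

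Among the other values, 319 stayed, 35 moved and 2 that lay past a factor of 1.5 crossed 1. Both were of H3c8, whose ratio of 0.654 was 1.05 thinned and 1.04 without the top 1%. Ratios nearer to 1 that crossed it are not among the 2. Examples are H1f1 (1.12, and 0.883 thinned), H4c9 (1.09, and 0.813 thinned), and the core genes in cycling cells, H2ac4 and H3c2, given below. The H1 ratio in cycling cells was 1.25 thinned, 1.09 from a sum of 8 and 1.56 without the top 1%; the core ratio was 0.795, 0.703 and 1.08. Other moves of over 1.5 times among named genes were those of H2ac22 (0.107), H3c3 (0.117) and H3c4 (0.251) when thinned, and H2ac4 (1.40) and H3c2 (1.49) without the top 1%.

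No paired analysis was possible because each group is 1 library. Thinning left 21 genes at the minimum, so single genes rest on few UMIs there. Histone UMIs lie in few cells, and intervals for single genes are therefore too narrow.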
